A study of Mus musculus with 2 samples.

Results

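Ion channel genes were examined for chromatin accessibility in primary murine cardiac fibroblasts, the cells of the heart that make its collagen scaffold. Both libraries came from fibroblasts treated with TGF-β, the cytokine that turns them into contractile myofibroblasts, at 5 ng/ml for 24 h. One library was from cells given scrambled siRNA (SCR, labelled NC) and the other from cells given siRNA against Piezo2 (siPiezo2), which encodes a stretch-activated cation channel. The methods place the study's mouse strains on a C57BL/6 J background without naming the mice behind these cells. The age of those mice and whether cells were pooled are not given in the sources used here, and the series-level description and the methods disagree with the labels, the first in naming Cre deletion of Tet3 instead of an siRNA, the second in starting from minced tissue with a different kit. With 1 library per condition no difference has a replicate check and no p-value is given. An siRNA acts on mRNA, so accessibility does not check the knockdown. The genes were those whose symbol starts with Kcn (potassium channels, Kcnk2 left out), Cacna, Cacnb or Cacng (voltage-gated calcium channels), or with Scn (sodium channels), Clcn (chloride channels and transporters), Ryr, Itpr (calcium release channels), Stim or Orai (store-operated calcium entry) and a number. Of 157 such symbols in the RefSeq gene table, 97 had a peak assigned to them, out of 16934 genes with a peak. They held 423 of the 43864 peaks assigned to a gene.

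Ion channels set the membrane potential and the calcium signals of a cell. Fibroblasts do not fire action potentials, but potassium channels hold their resting potential, and calcium that leaves the endoplasmic reticulum through inositol trisphosphate receptors and then enters through Orai pores gated by Stim sensors takes part in their activation. Many genes of voltage-gated channels are long and are used mainly in neurons or heart muscle. In ATAC-seq the Tn5 transposase cuts open DNA, so the reads over a region follow how open it is, and an open region in a gene need not mean that the gene is transcribed. In bulk cells, fewer cells with an open site and a less open site in each cell cannot be told apart.

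The deposited values are read densities in windows of 2000 bp, normalised by the authors. A gene's density was the sum over its peaks, and ratios are log2((siPiezo2 + 1)/(SCR + 1)), so that a negative value means less signal after Piezo2 knockdown. Peaks or genes below 0.66 or above 1.5 of SCR are called lower or higher past 1.5-fold. The reads behind the densities were recovered as whole numbers, with a median of 52 in SCR and 34 in siPiezo2 per channel peak, and gave 95% exact binomial (Clopper-Pearson) intervals. These intervals cover counting error only and are too narrow. Channel peaks called in both libraries varied 2.65 times as much as counting error gives, against 2.15 times for all such peaks. In addition, at least 28 of the 423 windows overlapped another. Of 8 fibroblast markers 7 had a peak at their start site, and over all peaks the median ratio of these 7 was -0.16, with 6 below 0. The counting interval lay below 0 at 2 of them, Col1a1 with 129 in SCR and 95.01 in siPiezo2 (-0.44, -0.73 to -0.15) and Col1a2 with 131 and 92.8 (-0.50, -0.79 to -0.21). None of 6 cardiomyocyte, 4 endothelial and 4 macrophage markers had a start-site peak, and over all peaks the cardiomyocyte marker Tnnt2 was at 0.0036 and the macrophage markers Csf1r and Ptprc at -0.25 and -0.24. Of 4 smooth muscle and pericyte markers 2 had one, and start-site densities summed to 53.5 in SCR and to 45.4 in siPiezo2. Rgs5, a pericyte marker with 5 peaks but none at its start site, summed to 127 in SCR and to 56.0 in siPiezo2. The rest of that list did not share this size of difference, with sums over all peaks of 139 and 119 for Myh11 (-0.23), 147 and 165 for Cspg4 (0.16) and 20.9 and 21.5 for Cnn1 (0.042). Of the endothelial markers, Cdh5 had 47.7 and 78.0 (0.70), Pecam1 135 and 135 (0.0068), Kdr 19.0 and 17.7 (-0.098) and Tie1 no peak. Of 4 neuronal markers 1 had a start-site peak, with 38.1 in SCR and 30.6 in siPiezo2. Over all peaks the 4 neuronal markers were all below 0, with a median of -0.38, which was -0.29 relative to all genes and -0.32 with reads at the same total. They were Rbfox3 at 133 and 102 (-0.37, -0.65 to -0.098), Snap25 at 16.9 and 10.9 (-0.59, -1.48 to 0.26), Syp at 42.2 and 32.0 (-0.39, -0.91 to 0.11) and Tubb3 at 117 and 98.5 (-0.24, -0.54 to 0.043). The part of such cells in the values below was not tested.

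As a group the channel genes were slightly lower in siPiezo2, about as much as genes in general. Their median ratio was -0.12 (quartiles -0.31 and 0.088), against -0.093 for all 16934 genes, and 64 of 97 (65.98%) were below 0, as were 62.6% of all genes. Past 1.5-fold, 5 of 97 (5.15%) were lower and 2 (2.06%) were higher, where 6.21% of all genes were lower and 1.54% higher. The ratio of the group as a whole hung on the scaling, since the median was 0.015 with median-of-ratios scaling and 0.036 with reads at the same total, under which all genes had medians of 0.043 and 0.030. Classes are therefore also given relative to the median of all genes. The counting interval lay below 0 for 23 channel genes (23.7%) and above 0 for 3 (3.09%), where the whole table had 15.2% and 4.37%. An interval below 0 can still hold the median of all genes, -0.093. It did so at Kcnma1, Kcnq1, Kcnip1, Itpr1, Kcnj15 and Orai2, among others. Cacna1c, Kcnab1, Itpr2 and Itpr3 were among those whose interval did not hold it. Genes with more peaks have more reads and narrower intervals. Among the 25 channel genes with 5 or more peaks, 24 were below 0 (96%, beside 78.0% of all genes with as many peaks), with a median of -0.22 against -0.15 for all 2157 genes with as many peaks. For 12 of the 25 (48%) the interval lay below 0 and for 0 above, against 38.6% and 3.34% of all such genes. The scatter of the summed densities shows the genes, without Kcnq1ot1, along the line of equal density, with the long genes at the upper end just under it.

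**Figure D1:**
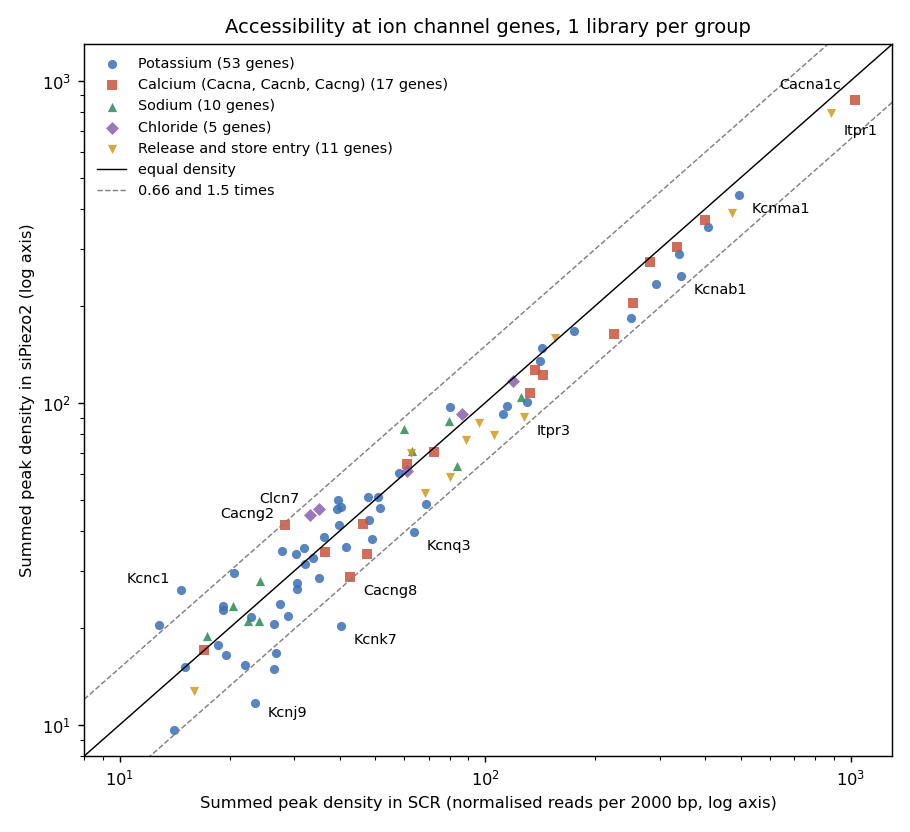
Summed peak density of each channel gene in SCR (horizontal) and in siPiezo2 (vertical), in normalised reads per 2000 bp on log axes, with 1 library per condition and Kcnq1ot1 left out; lines mark equal density and 0.66 and 1.5 times. Cacna1c (1029 in SCR and 872 in siPiezo2) and Itpr1 (880 and 794) stand at the upper end, and Kcnk7, Kcnj9 and Kcnc1 lie outside the dashed lines.

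The peaks of channel genes lay more often in introns, and less often at start sites, than peaks in general. Introns held 341 of the 423 channel peaks (80.6%) against 60.6% of all peaks assigned to a gene, and only 54 (12.8%) lay at most 1 kb from a TSS (transcription start site) of the gene, against 33.2%. A start-site peak was present in 47 of the 97 genes (48.5%), against 70.2% of all genes. The genes were also long, with a median span of 80.1 kb against 22.1 kb, and had 4.36 peaks on average against 2.59. Calling fell mostly on SCR, the library with more reads in peaks (4615335 against 2754046 over all peaks). In SCR only, 328 channel peaks (77.5%) were called, with 84 (19.9%) in both libraries and 11 in siPiezo2 only. All peaks assigned to a gene had 61.2% in SCR only and 36.8% in both. The reason for this difference in calling was not tested. For 112 peaks (26.5%) the nearest TSS was that of another gene, against 18.5%, so part of the intronic signal may belong to a neighbour.

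The start-site peaks of channel genes were balanced between the libraries and the other peaks were lower in siPiezo2 in the deposited scaling. Most channel peaks were called in SCR only, so they entered the values through that library alone. Channel peaks called in SCR only had a median of -0.20, those called in both -0.099 and those in siPiezo2 only 0.54. All peaks assigned to a gene had -0.22, 0.0096 and 0.51. How far this calling sets the lower values was not tested. At the 54 start-site peaks the median was -0.0094 and 27 were below 0. Their split was 3 lower and 3 higher past 1.5-fold (5.56% each), beside 6.39% lower and 2.09% higher of all 14581 start-site peaks. The 32 of the table's own promoter class had a median of -0.050, against -0.030 for all 9251 peaks of that class. At the 369 other channel peaks the median was -0.19, 245 were below 0, and 54 (14.6%) were lower and 11 (2.98%) higher past 1.5-fold, beside 15.1% and 3.18% of all 29283 other peaks. The whole table had the same pattern, with medians of -0.043 at start sites and -0.16 elsewhere, so it is not particular to channels. With reads at the same total the 2 channel medians were 0.066 and 0.0020, closer to each other. Over all 423 channel peaks the median was -0.16 against -0.12, with 57 (13.5%) lower and 14 (3.31%) higher past 1.5-fold, beside 12.2% and 2.82% of all peaks assigned to a gene. The curves of start-site and other peaks show the gap between the 2 kinds and how closely the channel curves ran along those of all genes.

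**Figure D2:**
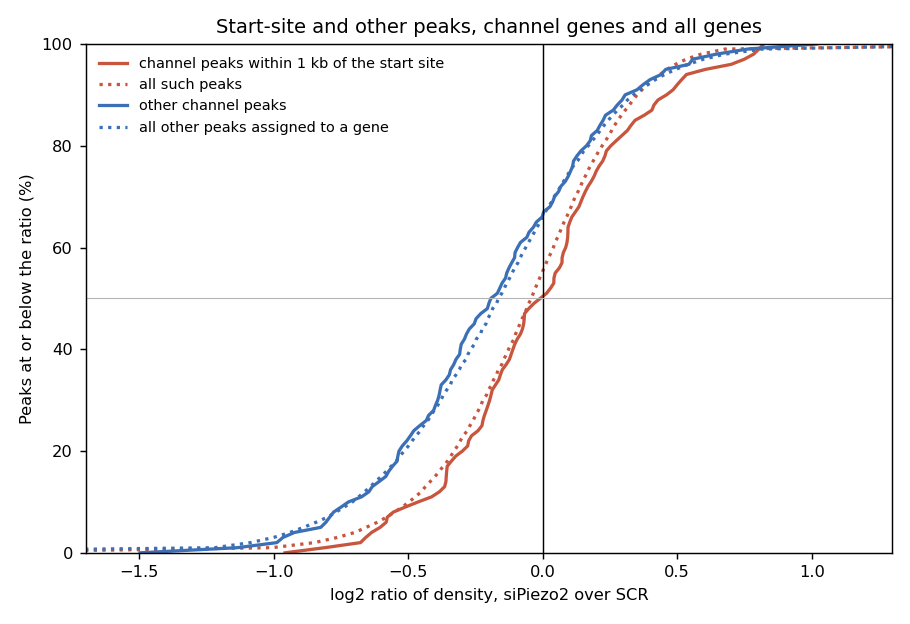
Share of peaks (vertical, percent) at or below each log2 ratio of siPiezo2 over SCR (horizontal), for channel peaks within 1 kb of the start site and all other channel peaks (solid) beside the same for all genes (dotted). The start-site curve crosses 50% at -0.0094 and the curve of the other channel peaks at -0.19.

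At 8 start-site peaks the counting interval lay off 0, below it at Kcnk7, Kcnj15 and Cacna1c and above it at 5, among them Itpr1, Cacng2, Kcnc1 and Kcnk12. Those 3 and 5 of 54 are 5.56% and 9.26%, beside 7.3% and 4.86% of all start-site peaks. To show what these start sites look like, the bases upstream of the RefSeq start are given for the 4 genes whose stretch lay inside the counted window and outside annotated exons (RefSeq starts, GRCm38.p6, read from 5′ to 3′ on the gene's strand). The deposited positions are in another assembly, GRCm39, so peak coordinates were not used. Each stretch lies upstream of the gene's RefSeq start nearest to the start of the peak's Ensembl transcript. The RefSeq start lay -500 bp from the Ensembl start at Kcnk7, 78 at Cacna1c, -29 at Kcnc1 and 0 at Kcnk12. Negative values are upstream. The 250 bases reached up to 953 bp from the peak summit at Kcnk7, 758 at Cacna1c, 649 at Kcnc1 and 395 at Kcnk12. Capitals mark the GC box (GGGCGG, or CCGCCC on the other strand), bound by Sp/KLF factors, and 1 TEAD motif (CATTCC). Kcnk7 is at chr19:5704221-5704366 (+), Cacna1c at chr6:119108574-119108745 (-), Kcnc1 at chr7:46396218-46396467 (+) and Kcnk12 at chr17:87797995-87798244 (-).
Kcnk7: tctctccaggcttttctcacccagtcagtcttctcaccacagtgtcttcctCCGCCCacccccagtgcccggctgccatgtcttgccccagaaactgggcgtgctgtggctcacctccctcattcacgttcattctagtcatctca
Cacna1c: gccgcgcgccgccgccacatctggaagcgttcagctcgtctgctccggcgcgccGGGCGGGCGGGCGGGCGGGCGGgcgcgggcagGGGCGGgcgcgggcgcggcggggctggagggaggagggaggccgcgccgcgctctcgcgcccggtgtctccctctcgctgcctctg
Kcnc1: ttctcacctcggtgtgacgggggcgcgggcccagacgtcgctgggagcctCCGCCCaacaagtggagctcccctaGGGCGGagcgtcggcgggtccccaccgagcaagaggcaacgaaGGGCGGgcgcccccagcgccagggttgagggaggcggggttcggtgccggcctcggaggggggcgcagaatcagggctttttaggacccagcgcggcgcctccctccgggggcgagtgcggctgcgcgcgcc
Kcnk12: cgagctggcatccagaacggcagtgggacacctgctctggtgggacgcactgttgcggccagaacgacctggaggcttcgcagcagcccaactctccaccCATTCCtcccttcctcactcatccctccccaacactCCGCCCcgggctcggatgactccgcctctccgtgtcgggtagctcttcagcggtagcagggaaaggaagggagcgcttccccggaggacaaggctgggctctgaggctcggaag
Each of these 4 stretches held a GC box, whether the gene's start-site peak was lower or higher in siPiezo2. Cacna1c had 6 of them, overlapping or close together, and Kcnc1 had 3. Channel peaks had a median width of 290 bp, so a stretch can lie outside the called peak. The GC content of the 250 bases upstream was 62.4% at Kcnk7, 82.8% at Cacna1c, 74.4% at Kcnc1 and 64.8% at Kcnk12, against a median of 52.4% over all 32851 promoters and 58.8% over the 155 promoters of 118 channel genes in the RefSeq table. A GC box was in 45.2% of the channel promoters and in 32.7% of all. The TEAD motif GGAATG (either strand), seen at Kcnk12, was in 15.5% of the channel promoters and 12.6% of all. For the AP-1 motif TGANTCA the shares were 2.58% and 6.75%, and for TATAAA 4.52% and 12.4%. The CArG box of SRF was in 0 of the 155 channel promoters and in 1.47% of all. These are matches of letters and not binding sites, and 72 of the 97 channel genes were in the table.

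The voltage-gated potassium channels (Kv), whose pore subunits open on depolarisation, had the second lowest class median. Of 40 pore genes 19 had a peak, and their median was -0.23, with 14 of 19 below 0. Relative to all genes it was -0.13 in the deposited scaling and -0.051 with reads at the same total. Kcnq3, a subunit of the M-current that steadies neuronal membranes, had densities of 63.8 in SCR and 39.8 in siPiezo2 over 3 peaks, all lower, a ratio of -0.67 (-1.11 to -0.24). Kcnb2, which carries a delayed rectifier current, had 68.9 and 48.5 (-0.50, -0.90 to -0.098). Most of that gap came from a peak in its 3′ UTR at chr1:15789819-15790138, with 53 reads in SCR and 13 in siPiezo2 (-1.43), whose nearest TSS is that of Terf1. Of the other 3 Kcnb2 peaks, 2 were lower (-0.54 and -0.34) and 1 higher (0.36).

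Other Kv genes showed smaller gaps. Kcnq1, the pore of the slow cardiac delayed rectifier and among the most accessible Kv genes, had 340 in SCR and 291 in siPiezo2 over 12 peaks (-0.22, -0.39 to -0.058), 9 of them lower and none past 1.5-fold. Kcnq1ot1, the noncoding transcript that runs antisense within Kcnq1, had 60.4 and 67.7 (0.16, -0.21 to 0.53), and a peak there cannot be ascribed to 1 strand. Kcnh1, the EAG1 channel described in dividing cells and fibroblasts, had 292 and 234 over 10 peaks (-0.32, -0.50 to -0.14), and 8 of the 10 were lower. Kcnd3, which carries a transient outward current, had 49.1 and 37.9 (-0.37, -0.84 to 0.093), an interval that spans 0. On the other side were Kcnc4 with 27.9 and 34.6 (0.30, -0.24 to 0.84) and Kcnv2, a silent subunit, with 39.2 and 46.7 (0.25, -0.21 to 0.70). Kcnq5 had 9 peaks that scattered from -1.13 to 0.83, with 2 lower and 2 higher past 1.5-fold, and a sum close to even at 143 and 148 (0.047). Kcnh7 summed to 51.1 and 51.0, although it held one of the highest channel peaks, at chr2:62839536-62839736 in intron 2 of 15, with 24 reads in SCR and 33 in siPiezo2 (0.81).

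The Kv genes Kcnh2 and Kcnc1, each with a single peak and fewer than 100 reads, stood past 1.5-fold and are named after their values were seen. Kcnh2, the hERG channel that repolarises heart muscle, had 63 reads in SCR and 27 in siPiezo2 (-0.65, -1.35 to 0.027). Kcnc1, a fast channel of neurons, went the other way at its start site, with 34 reads in SCR and 43 in siPiezo2 (0.79, 0.10 to 1.48), the highest ratio of any channel gene in the deposited scaling. The interval of Kcnh2 spanned 0.

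Inward rectifiers (Kir) hold the resting potential, and 9 of 15 genes had a peak, with a median of -0.12, near that of all genes. Kcnj2, the Kir2.1 channel described in cardiac fibroblasts, was even, with a single start-site peak of 33.7 in SCR and 33.0 in siPiezo2 (-0.032, -0.56 to 0.49). Kcnj12, the related Kir2.2, had 51.5 and 47.3 (-0.12, -0.55 to 0.30). Kcnj15 had 130 and 100 over 4 peaks (-0.37, -0.66 to -0.093). Its start-site peak had 38.1 and 23.4 (-0.68), but the only Kcnj15 peak called in both libraries was higher in siPiezo2, at 0.22. Kcnj9, a G protein-gated channel with a single peak, had 54 reads in SCR and 19 in siPiezo2 (-0.95, -1.78 to -0.17), and was named after its value was seen. Kcnj8, the pore of the vascular ATP-sensitive channel, had no assigned peak.

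The 2-pore domain channels (K2P), which leak potassium at all voltages, lay above the other potassium classes. Of 13 genes 9 had a peak, with a median of 0.14 and 5 of 9 above 0, which was 0.23 above the median of all genes in the deposited scaling and 0.37 above it with reads at the same total. The class also held the lowest gene. Kcnk7, a silent member, had 98 reads in SCR and 32 in siPiezo2 at the peak in its 5′ UTR, densities of 40.3 and 20.3 (-0.96, -1.58 to -0.37). Kcnk12, another silent member, had 39.5 and 49.7 in sum (0.32, -0.12 to 0.77). Its start-site peak at chr17:88105132-88105422 had 34 reads in SCR and 44 in siPiezo2, a ratio of 0.82 (0.14 to 1.51), while its other peak was at -0.11. Kcnk4, the mechanosensitive TRAAK channel, had 20.6 and 29.7 at its start site (0.51, -0.098 to 1.11), and Kcnk9 had 29 and 34 reads at 1 peak (0.63, -0.12 to 1.40), both of them with intervals that span 0. Kcnk5, the acid-sensitive TASK-2 and the most accessible of the class, summed to 174 and 167 (-0.064, -0.29 to 0.16). Within it 1 intron 1 peak was higher, with densities of 29.1 and 46.4 (0.66), and the strongest, in the same intron, was lower, with 71.4 and 55.9 (-0.35). Kcnk3 had no assigned peak.

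Among calcium- and sodium-activated potassium channels, 5 of 8 genes had a peak and their median was -0.14. Kcnma1, the large-conductance BK channel found in cardiac fibroblasts, held 21 peaks with 495 in SCR and 441 in siPiezo2 (-0.17, -0.30 to -0.032), but its ratio was 0.016 with reads at the same total. The peaks of Kcnma1 ranged from -1.13 to 0.72. The lowest, at chr14:23683279-23683489 in intron 2 of 26, had 45 reads in SCR and 14 in siPiezo2, and a strong peak nearby, called in both libraries, had densities of 58.5 and 37.2 (-0.64). The highest, in intron 1, had 22.4 and 37.5 (0.72) and was also called in both. No Kcnma1 peak lay within 1 kb of its start site. Kcnn3, a small-conductance channel, had 141 and 135 (-0.070, -0.32 to 0.18), and Kcnt2, a sodium-activated channel, had 112 and 92.3 with all 5 peaks lower (-0.27, -0.57 to 0.022). Kcnn4, the intermediate-conductance channel of activated fibroblasts, had no assigned peak.

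Accessory potassium channel subunits alter the gating of the pores, and 11 of 17 genes had a peak, with a median of -0.15. Kcnab1, the cytoplasmic β subunit Kvβ1, was the lowest among channel genes with 8 or more peaks. It summed to 344 in SCR and to 248 in siPiezo2 (-0.47, -0.65 to -0.30), and 10 of 15 peaks were lower, 6 of them past 1.5-fold. Those 6 were spread along the gene, 4 in intron 1 and 2 in intron 13. The lowest, at chr3:65113101-65113301 in intron 1 of 13, had 41 reads in SCR and 12 in siPiezo2 (-1.22), and the start-site peak had 20.1 and 21.5 (0.093). None of the 15 peaks was called in both libraries. Kcnip1, a calcium sensor that binds Kv4 channels, had 407 and 352 (-0.21, -0.36 to -0.058) with 13 of 15 peaks lower, 1 of them past 1.5-fold. Kcnab2, the Kvβ2 subunit, went the other way, with 80.2 and 97.2 over 2 peaks (0.27, -0.040 to 0.59). The β subunits Kcnab1 and Kcnab2 thus had intervals that did not overlap, which compares these 2 libraries and not the conditions.

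**Figure D3:**
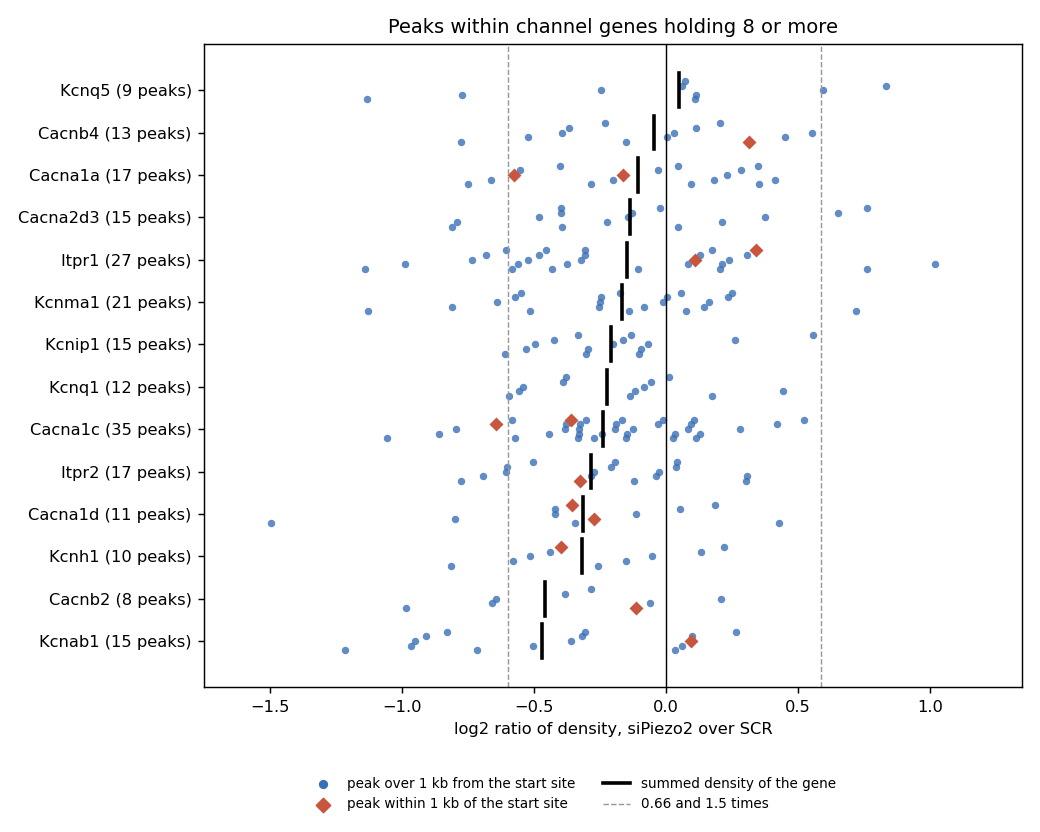
Log2 ratio of siPiezo2 over SCR (horizontal) of every peak in the channel genes with 8 or more peaks, ordered by the ratio of the gene's summed density (black bars); diamonds are peaks within 1 kb of a start site and dashed lines mark 0.66 and 1.5 times. Kcnab1 has 6 peaks left of the lower line, while the peaks of Itpr1 and Kcnq5 lie on both sides.

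Voltage-gated calcium channel pores admit calcium on depolarisation, and 7 of 10 genes had a peak, with a median of -0.12 and 6 of 7 below 0. Cacna1c, the L-type pore Cav1.2 and the channel gene with most peaks, ranked 16 among all genes by mean density. Its 35 peaks summed to 1029 in SCR and 872 in siPiezo2 (-0.24, -0.33 to -0.14), with 25 peaks lower. The ratio was -0.096 with reads at the same total, which was 0.13 below the median of all genes. Of its peaks 4 were lower past 1.5-fold and 0 higher, and the lowest, in intron 1, had 49 reads in SCR and 16 in siPiezo2 (-1.06). Its start-site peaks, at separate start sites, had 29.8 and 18.7 (-0.64) and 29.2 and 22.5 (-0.36). Of all peaks assigned to a gene, 62.6% were below 0, with 12.2% lower and 2.82% higher past 1.5-fold. The lower sum of Cacna1c was thus spread over many peaks, and its share lower past 1.5-fold was near that of the table.

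Cacna1d, the L-type pore Cav1.3, had 253 in SCR and 204 in siPiezo2 (-0.31, -0.51 to -0.12) over 11 peaks, 8 of them lower. It held the lowest peak of all channel genes, at chr14:29802713-29803020 in intron 1 of 16, with 65 reads in SCR and 15 in siPiezo2 (-1.50, -2.41 to -0.67), at 1849 bp from a start site of the gene. Cacna1a, the P/Q-type pore of nerve terminals, had 17 peaks with 399 and 370 (-0.11, -0.26 to 0.041), and was higher in siPiezo2 with reads at the same total, at 0.075. Cacna1g, a T-type pore, had 47.5 and 34.0 (-0.47, -0.96 to 0.0088). The L-type genes Cacna1c and Cacna1d were thus the Cav pores with intervals below 0.

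The accessory calcium channel subunits carry the pore to the membrane and set its gating, and 10 of 16 genes had a peak, with a median of -0.13 and 9 of 10 below 0. Relative to all genes the class lay 0.042 lower. Cacnb2, the main β subunit of heart L-type channels, had 225 in SCR and 164 in siPiezo2 (-0.46, -0.68 to -0.24), with 7 of 8 peaks lower. Its strongest peak, in intron 2 of 13 and called in both libraries, had 152 reads in SCR and 46 in siPiezo2 (-0.99, -1.50 to -0.50), whereas its start-site peak was at -0.11. Cacna2d1, the α2δ-1 subunit found in fibroblasts, had 144 and 122 (-0.24, -0.50 to 0.019). Cacna2d3 had 334 and 304 over 15 peaks (-0.14, -0.30 to 0.029), with 2 peaks lower and 2 higher past 1.5-fold. The highest of these, at chr14:29000414-29000744 in intron 11 of 37, had 26 reads in SCR and 34 in siPiezo2 (0.76). Cacnb4 had 283 and 274 (-0.044, -0.22 to 0.13). Of the transmembrane γ subunits, which also tune AMPA receptors, Cacng8 had 42.8 and 28.8 (-0.56, -1.09 to -0.042) and Cacng2 had 28.4 and 41.8 at its start site (0.54, 0.033 to 1.05), each from 1 peak called in both libraries.

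**Figure D4:**
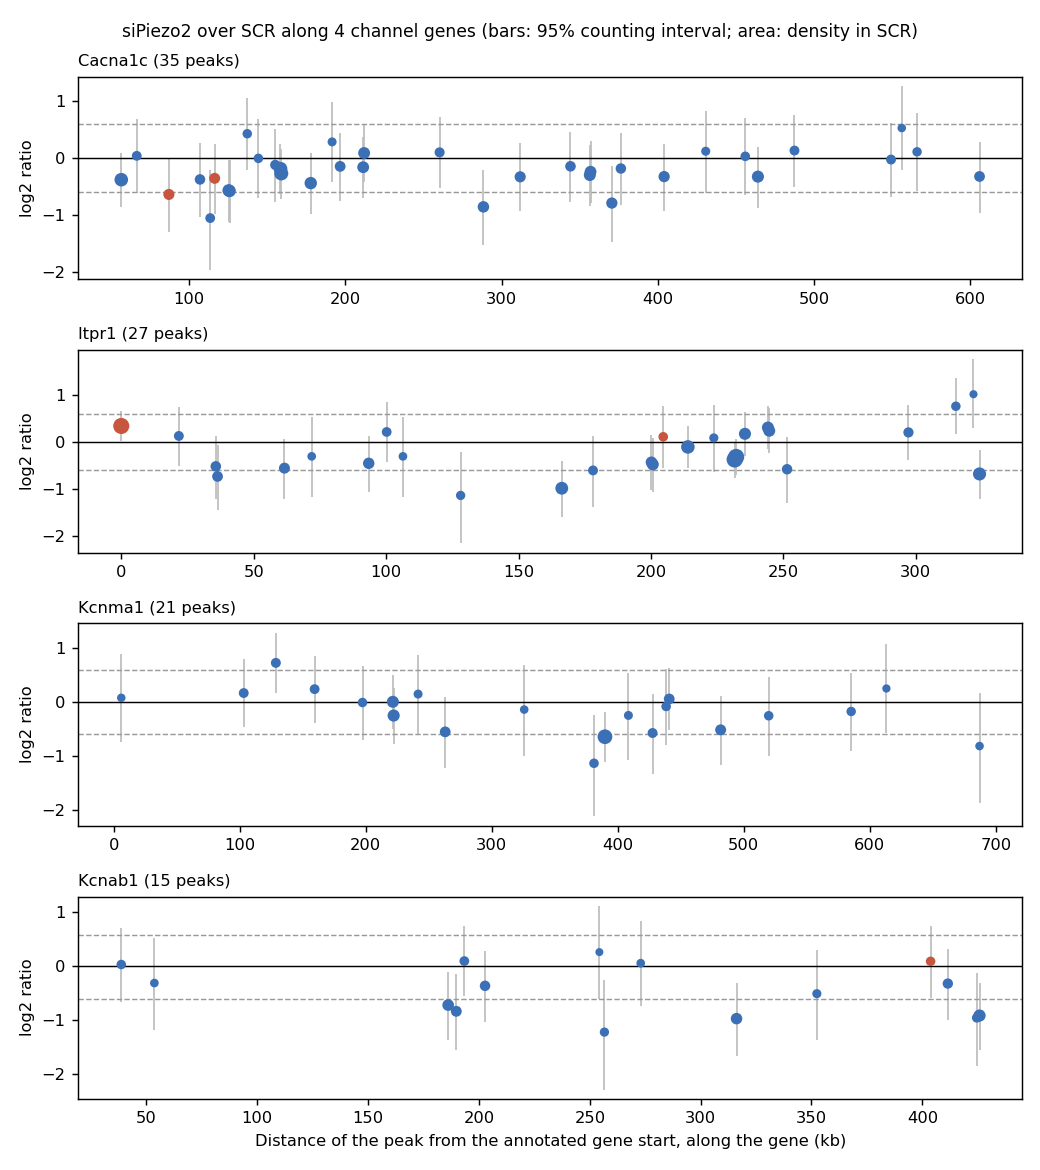
Log2 ratio of siPiezo2 over SCR (vertical) of the peaks of Cacna1c, Itpr1, Kcnma1 and Kcnab1 against their distance along the gene from its annotated start (horizontal, kb); bars are 95% counting intervals, red points are within 1 kb of a start site and the area of a point follows its density in SCR. Lower peaks are spread over the length of Cacna1c and Kcnab1, while the first start-site peak of Itpr1 lies above 0 at 0.34.

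Calcium release channels had the lowest class median, with all 6 genes holding a peak and 5 of 6 below 0. The median was -0.30, which was 0.20 below the median of all genes and 0.12 below it with reads at the same total. The 3 inositol trisphosphate receptors were all lower. Itpr3 had 128 in SCR and 90.5 in siPiezo2, with all 4 peaks lower at -0.58 to -0.36 (-0.50, -0.79 to -0.21). Itpr2 had 474 and 389 over 17 peaks (-0.28, -0.43 to -0.14), with 13 lower, 4 of them past 1.5-fold. Itpr1 had 880 and 794 over 27 peaks (-0.15, -0.25 to -0.047), a gap of -0.0084 with median-of-ratios scaling and -0.010 over its 8 peaks called in both libraries. The ratios of all 3 receptors thus had the same sign, with that of Itpr1 close to 0 under those settings.

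Within Itpr1 the peaks went both ways. The peak at its main start site, the strongest of the gene in siPiezo2, had 191 reads in SCR and 134 in siPiezo2, densities of 71.4 and 90.7 (0.34, 0.010 to 0.67). By contrast 5 peaks inside the gene were lower past 1.5-fold. The lowest, at chr6:108318028-108318250 in intron 5 of 61, had 42 reads in SCR and 13 in siPiezo2 (-1.14). Another in intron 16 had 104 and 33 (-0.99), with an interval below 0. Intron 60, at the far end, held 3 peaks that disagreed, at 0.76, 1.02 and -0.68. The middle one of these, at chr6:108511717-108511917, had 28 and 43 reads, was called in siPiezo2 only and was the highest of all channel peaks.

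Ryanodine receptors release calcium from the reticulum of muscle. Ryr1, the skeletal muscle form, had 106 in SCR and 79.2 in siPiezo2 with all 4 peaks lower (-0.41, -0.73 to -0.099). Ryr2, the heart muscle form, had 62.5 and 69.7 (0.16, -0.21 to 0.52), and Ryr3 had 36 reads in SCR and 21 in siPiezo2 at 1 peak (-0.31, -1.16 to 0.51). None of the 3 Ryr genes had a peak at its start site.

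The genes of store-operated entry all held a peak, and 4 of 5 were lower, with a median of -0.20. That was 0.11 below the median of all genes but only 0.014 below it with reads at the same total. The Orai pores differed. Orai2 had 80.3 in SCR and 58.8 in siPiezo2, with all 3 peaks lower (-0.44, -0.81 to -0.078), and Orai1 had 68.6 and 52.3, with both peaks lower (-0.39, -0.78 to 0.0039). Orai3, the most accessible, was even at 155 and 159 (0.036, -0.20 to 0.27). The sensors of reticulum calcium had smaller gaps, with 88.4 and 76.7 at Stim1 (-0.20, -0.53 to 0.13) and 96.2 and 86.8 at Stim2 (-0.15, -0.46 to 0.16), and both were above 0 with reads at the same total, at 0.063 and 0.083. Of the 5 genes, Orai2 alone had an interval below 0, and that interval held the median of all genes, -0.093.

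Sodium channels lay on the higher side. Of 10 pore genes 7 had a peak, with a median of 0.14, which was 0.23 above the median of all genes and 0.32 above it with reads at the same total. Scn10a, a channel of sensory neurons, had 79.8 in SCR and 87.9 in siPiezo2 (0.14, -0.19 to 0.46). Others lay on the lower side, with Scn8a at 125 and 104 (-0.26, -0.55 to 0.015) and Scn11a at 84.0 and 63.5 (-0.40, -0.76 to -0.047). The β subunits had 1 peak each in 3 of 4 genes, with a median of 0.11, among them Scn3b at 20.4 and 23.4 (0.19). Scn9a, described in cardiac fibroblasts, had no assigned peak.

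Chloride channels and transporters had 5 of 7 genes with a peak and a median of 0.088, with 4 of 5 above 0. The class lay 0.18 above the median of all genes and 0.26 above it with reads at the same total. Clcn3, an endosomal exchanger described in fibroblasts, was the most accessible and even, at 119 in SCR and 117 in siPiezo2 (-0.028, -0.30 to 0.24). Clcn4 had 35.2 and 46.8 at its start site (0.40, -0.064 to 0.87), and Clcn7, the lysosomal exchanger, had 33.2 and 44.8 (0.42, -0.063 to 0.90). In Clcn7 the gap came from a peak in intron 7 of 24, with 48 reads in SCR and 51 in siPiezo2 (0.62), while the start-site peak had 13.1 and 13.2. Clcn1, the skeletal muscle channel, had 86.6 and 92.1 (0.088). No chloride gene had a counting interval off 0.

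**Figure D5:**
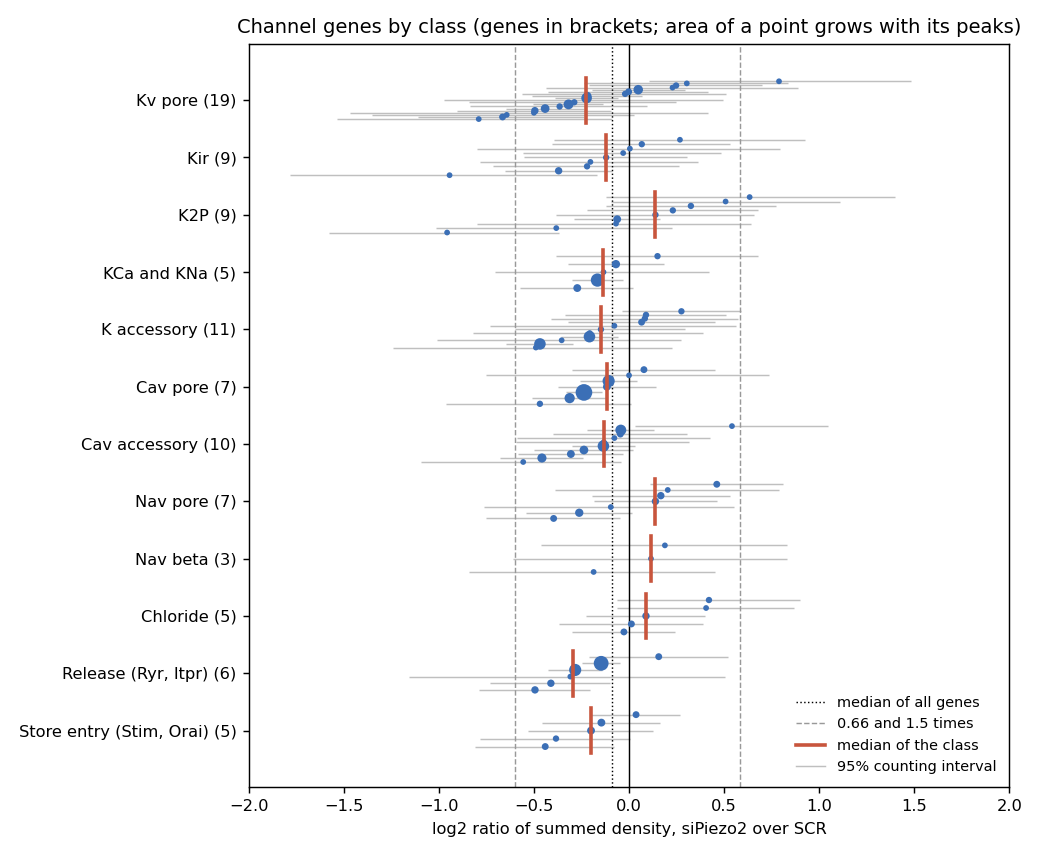
Log2 ratio of summed density, siPiezo2 over SCR (horizontal), of the channel genes in 12 classes (vertical, number of genes in brackets, Kcnq1ot1 left out); grey lines are 95% counting intervals, red bars class medians, the dotted line the median of all genes and the dashed lines 0.66 and 1.5 times. The class medians run from -0.30 for the release channels to 0.14 for the K2P and sodium pores.

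Ordered by median, the release channels (-0.30), Kv pores (-0.23) and store-operated entry genes (-0.20) were at the low end, and the K2P (0.14), sodium pore (0.14), sodium β (0.11) and chloride genes (0.088) at the high end. The other 5 classes lay between -0.15 and -0.12. The order was not tested, and the spread within a class was wider than the distance between neighbouring classes, from -0.96 to 0.63 among the K2P genes. With reads at the same total, the one scaling run that does not shift all genes nearly alike, the classes at the high end stayed above the median of all genes, and the release, Kv and store-operated entry classes lay at -0.12, -0.051 and -0.014 relative to it.

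Genes outside the families that move the same ions or regulate the channels had a median near 0 in the deposited scaling. Of 38 such genes 34 had a peak, with a median of -0.0078, and 17 of 34 were below 0. The median was 0.080 at the same total, 0.13 by median of ratios and 0.12 with reads at the same total, and lay 0.085 above that of all genes in the deposited scaling and 0.095 above it with reads at the same total. None was past 1.5-fold in either direction, against 6.21% of all genes lower and 1.54% higher. For 6 of the 34 the counting interval lay below 0 and for 1 above it, beside 15.2% and 4.37% of all genes. These were Jph2, which ties the cell membrane to the reticulum (401 in SCR and 296 in siPiezo2, -0.44), the kinase gene Camk2g (216 and 162, -0.41), the calcium pumps Atp2c1 (190 and 145, -0.38) and Atp2b4 (200 and 155, -0.36), the kinase anchor Akap9 (125 and 99.3, -0.33) and the sodium-calcium exchanger Slc8a1 (525 and 449, -0.23). Calm3, a calmodulin gene, was the one with an interval above 0, with 111 and 140 (0.33). Atp2a2, the SERCA2 pump that refills the store, had 115 and 136 (0.24, -0.018 to 0.51), and Mcu, the mitochondrial uniporter, had 290 and 302 (0.062, -0.11 to 0.23). No comparison between this list and the channel genes was tested.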

How the data were processed

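ATAC-seq libraries of TGF-β-treated cardiac fibroblasts (SCR and siPiezo2, 1 each) were assigned by their labels. Per the methods and labels, the authors aligned reads with bwa (BWA 0.7.12 per the labels' processing notes), removed duplicates and called peaks with MACS2. They deposited 1 table of peaks. Its signal columns are read densities that the authors normalised by regressing log2 ratio on mean log2 density. Its log2 columns (M and A), also the authors', served only to recover reads. The authors' log2 fold change and p-value columns compare the libraries and were not used. The labels name mm10, but gene coordinates in the table are those of GRCm39.

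Reads per 2000 bp window came out whole (within 0.05) for 100% of peaks. Log2 ratios used a pseudocount of 1. The procedure was tested on simulated data. Named genes were the 2 most accessible per class, the 8 lowest and 8 highest ratios with at least 100 reads, every Ryr, Itpr, Stim and Orai gene, 12 fibroblast channels, the 3 genes with most peaks, and the 5 lowest and 5 highest peaks with at least 50 reads. Others named after their values were seen are Kcnh2, Kcnc1, Kcnj9, Kcnk4, Kcnk9, Kcnq5, Kcnh7, Kcnt2, Cacna1d, Scn11a and the partner genes. Some named by the rule are not reported here. Members and lists were chosen with earlier results of these data known. Alternatives covered pseudocount, scaling, threshold, peak selection and chromosomes. The use of recovered reads, separate windows and nearest peaks as alternatives, and the promoter sequences (RefSeq, GRCm38.p6), were chosen after seeing the data. Software was scipy 1.17.1, pandas 2.3.3 and numpy 2.4.6 under Python 3.11.15, with plots by matplotlib 3.10.9.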

Additional observations from a re-analysis of the deposited data

How the results depend on the processing

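With 1 library per condition, leaving out a library was not possible, and sign and size are all that the alternatives can check. No paired analysis was possible because each condition has a single library. Other scalings took the median of all genes from -0.093 to -0.0076 at the same total, 0.043 by median of ratios and 0.030 for reads at the same total. Scaled to the same total, the channel gene and peak medians were -0.035 and -0.074, with 23 of 423 peaks higher past 1.5-fold (4.51% of all peaks) and 3 of 97 genes lower and 4 higher (4.22% and 2.70% of all genes). By median of ratios the medians were 0.015 and -0.025, with 27 peaks higher (5.89% of all), and 3 genes lower and 5 higher (3.42% and 3.83% of all). With reads at the same total the medians were 0.036 and 0.021, with 30 peaks lower and 39 higher (6.58% and 7.07% of all), 2 genes lower and 6 higher (2.92% and 4.19% of all), and Kcnma1 at 0.016. Over peaks called in both libraries the medians were -0.042 and -0.099, against 0.0086 for all genes and 0.0096 for all peaks, with 8 of 84 peaks lower and 3 higher (4.50% and 3.80% of all), 3 of 47 genes lower and 0 higher (2.71% and 2.41% of all), and Kcnj15 at 0.22. In the upper 50% of mean density, 24 of 171 peaks were lower and 4 higher (9.95% and 2.55% of all), and 3 of 65 genes lower and 1 higher (5.70% and 1.60% of all). At 2-fold, 7 peaks were lower and 1 higher (2.35% and 0.331% of all), and 0 genes lay past it either way (0.839% and 0.154% of all). With promoter peaks alone 1 of 29 genes was lower and 0 higher (5.33% and 1.89% of all), with the strongest peak per gene 12 genes were lower (8.64% of all), and with peaks nearest to their gene 9 of 311 peaks were higher (2.77% of all). The cause was not tested where the alternative did not itself take away peaks or genes. The median of the 32 peaks annotated as promoter within 1 kb, -0.050, ranged from -0.078 to 0.085 and was above 0 under the other 3 scalings and over peaks called in both libraries. With reads at the same total, Kcnab1 was at -0.25, Itpr2 at -0.13, Kcnip1 at -0.053, Cacna2d3 at 0.064 and Cacnb4 at 0.15. Over the stronger peaks Kcnab1 was at -0.88, Itpr2 at -0.48 and Cacna2d3 at -0.36, and over peaks called in both libraries Kcnh1 was at -0.62 and Cacna2d3 at 0.21. Depth limits single peaks, at a median of 52 and 34 reads.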

Other observations

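Distal intergenic peaks are assigned to no gene in the table and entered no value above. A channel gene had the nearest TSS for 46 of the 19430 such peaks. Their median was -0.13, against -0.18 for all of them, and 30 of 46 were below 0. Past 1.5-fold 8 of the 46 were lower and 0 higher, where 3224 of all 19430 distal peaks were lower and 782 higher. The share of lower peaks was thus close to that of all distal peaks. The lowest lay at -32494 bp from a Cacnb2 TSS (a negative distance is upstream), at chr2:14575271-14575540, with 31 reads in SCR and 9 in siPiezo2 (-1.23, -2.49 to -0.13). The next, at chr5:54109793-54110356 and -45767 bp from Stim2, had 79 and 24 reads (-1.10, -1.82 to -0.42). Stim2 had a further one on its other side, with 56 and 21 reads (-0.85, -1.65 to -0.11). Of the 9 distal peaks nearest to Stim2, 4 were above 0, among them the one with most reads, at chr5:54128492-54128922, called in both libraries with 107 and 70 (0.092, -0.36 to 0.54). Which gene a distal peak serves was not tested.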
